A study of Mus musculus with 88 samples.

Results

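The subcortical maternal complex is a protein assembly beneath the surface of the mammalian oocyte, and 8 of its genes were followed here in single mouse oocytes. They are Nlrp5, Ooep, Tle6, Khdc3, Padi6, Zbed3, Nlrp2 and Nlrp4f, named for their known place in or beside the complex. The rule that names them uses no measured value, although they were picked for description with earlier results of these data known. Of these 8 genes, 7 had a feature of their own among the 38540 features of the count table, and Ooep had none. Fully grown oocytes at the germinal vesicle (GV) stage, the stage before meiosis resumes, came from unmated C57BL/6Babr females that ovulated spontaneously, with no transgene or other treatment named in the labels. Young females were 12 weeks old and aged females 44 to 54 weeks old. At both ages the oocytes were of either chromatin configuration, the non-surrounded nucleolus (NSN) or the surrounded nucleolus (SN), the later state in which chromatin rings the nucleolus and transcription has ceased. The set holds 30 young NSN, 37 aged NSN, 12 young SN and 8 aged SN oocytes, from 3 young and 7 aged mice.

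The configuration of each oocyte is the study's prediction from the transcripts of the same oocyte, not from an image of it. SN against NSN comparisons are therefore not independent of expression, and whether members of the complex entered that prediction was not tested. The mouse of each oocyte is not named, so each age counts as 1 sample, there is no replicate check and p-values are not printed. Each SD describes the scatter of single oocytes, and each 95% interval covers counting error only. Levels are CPM, a group's summed counts scaled to a common library total, so a level is a share of the library, and the amount of RNA per oocyte was not measured. Total counts ran from 976456 to 8231046 over the 87 oocytes, and the median was 3002989 for the young group and 2379884 for the aged group. Pearson's r of the members' log2 levels with the log2 total count was between 0.01 and 0.20. Within groups of age and configuration it ran from -0.05 (Zbed3) to 0.24 (Tle6). All 8 oocyte marker genes, Zp1 to Zp3, Gdf9, Bmp15, Oosp1, Ddx4 and Kit, were above 10 CPM over the 87 oocytes. Of 9 granulosa cell markers 8 had a feature, and only Kitl exceeded 10 CPM over the 87 oocytes. Their summed level ran from 5.67 to 61.5 CPM in young NSN, from 6.14 to 85.0 CPM in aged NSN, and from 9.55 to 38.6 CPM in young SN oocytes, and in aged SN oocytes it lay between 13.9 and 31 CPM. The defining marker Foxl2 had a count in 6 of the 87 oocytes. Hemoglobin genes Hbb-bs and Hba-a1 and the collagen gene Col1a1 were at 0 in every oocyte, while the endothelial marker Pecam1 stood at 65.1 CPM and Ptprc had no feature.

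As background, the complex is laid down during oocyte growth from genes most of which are expressed mainly in oocytes, and it persists in the early embryo. NLRP5 (MATER), OOEP (FLOPED) and TLE6 form its core, and KHDC3 (FILIA) binds to that core. PADI6, a member of the peptidylarginine deiminase family, is needed for the cytoplasmic lattices, fibrous arrays that store maternal proteins. Embryos of mouse females that lack Nlrp5, Ooep, Tle6 or Padi6 arrest during early cleavage, which is why these are called maternal effect genes. ZBED3 is a zinc finger protein that binds the complex, and NLRP2 and NLRP4F are further NLR family proteins found with it.

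The features were assembled transcripts with GRCm38 coordinates. Padi6 lies at chr4:140726302-140742643 on the minus strand, and its gene has 18 exon blocks. Nlrp2 and Nlrp5 share a chromosome, at chr7:5297854-5351073 on the minus strand and chr7:23385417-23441922 on the plus strand. Tle6 lies at chr10:81590755-81601181 on the minus strand. Khdc3 lies at chr9:73100851-73106931 on the plus strand. Nlrp4f and Zbed3 also share a chromosome, at chr13:65177111-65205969 on the minus strand and chr13:95322751-95350803 on the plus strand. The feature of Zbed3 spans 28053 bases against 14230 in the annotated gene, and that of Khdc3 spans 6081 against 2603. Both thus take in sequence beyond the annotated gene. The Tle6 feature carries the name of its neighbour Tle2 in the study's list, and the Khdc3 feature the older name 2410004A20Rik, and both were assigned by position and strand. The kit does not mark strand, and whether reads were counted by strand is not given in the sources used here. Reads of Nlrp2 therefore cannot be told apart from those of Gm5065 where both genes overlap on opposite strands. The Zbed3 gene does not reach Aggf1 on the opposite strand, but the longer Zbed3 feature runs into its end. The overlapping features had 111 CPM for Gm5065 and 23.3 CPM for Aggf1. Nlrp genes form a family of similar sequences, and how reads that match several copies were divided is known only as far as that primary alignments were counted.

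Promoter sequence from RefSeq (GRCm38.p6) is shown for the members where it lay outside the annotated gene, Padi6, Nlrp5, Nlrp2 and Zbed3. Padi6, Nlrp5 and Nlrp2 co-vary below and Zbed3 does not go with them. The co-varying Tle6 is not shown, so the matches do not compare these patterns. Each run is the 250 bases before the annotated start, 5′ to 3′ on the gene's own strand. Capitals mark matches to CANNTG, the E-box recognised by helix-loop-helix factors such as the oocyte factor FIGLA, and to TAATTA or TAATTG, the element bound by the oocyte homeodomain factor NOBOX. Both strands were searched.
Padi6, chr4:140742644-140742893, minus strand: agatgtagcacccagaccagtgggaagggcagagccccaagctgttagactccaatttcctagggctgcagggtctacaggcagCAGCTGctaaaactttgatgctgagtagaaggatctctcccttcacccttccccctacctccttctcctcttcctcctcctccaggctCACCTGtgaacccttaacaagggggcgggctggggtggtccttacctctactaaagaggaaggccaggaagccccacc
Nlrp5, chr7:23385639-23385888, plus strand: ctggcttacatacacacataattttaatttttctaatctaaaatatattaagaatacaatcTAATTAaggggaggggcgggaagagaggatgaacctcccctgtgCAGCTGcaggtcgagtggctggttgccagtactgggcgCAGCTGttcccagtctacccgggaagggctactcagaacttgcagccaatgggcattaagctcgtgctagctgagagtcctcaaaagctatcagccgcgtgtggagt
Nlrp2, chr7:5351036-5351285, minus strand: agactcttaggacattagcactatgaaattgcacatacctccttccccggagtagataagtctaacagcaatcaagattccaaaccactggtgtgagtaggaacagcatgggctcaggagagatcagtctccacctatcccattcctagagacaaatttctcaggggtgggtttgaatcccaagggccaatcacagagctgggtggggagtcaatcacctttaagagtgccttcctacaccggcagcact
Zbed3, chr13:95323355-95323604, plus strand: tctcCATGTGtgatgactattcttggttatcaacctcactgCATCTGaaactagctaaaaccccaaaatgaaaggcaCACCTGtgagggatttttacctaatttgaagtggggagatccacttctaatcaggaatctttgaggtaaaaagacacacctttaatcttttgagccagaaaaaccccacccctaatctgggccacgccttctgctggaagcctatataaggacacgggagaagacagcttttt
CANNTG had 2 matches in Padi6, 2 in Nlrp5, 3 in Zbed3 and 0 in Nlrp2, and 66.2% of 32851 promoters of the same length hold at least 1. TAATTA had 1 match, in Nlrp5, against 4.84% of promoters, and TAATTG, held by 7.17%, had none in these windows. The Nlrp5 match to TAATTA ran from position -189 to -184 relative to the start. A match to so short a motif is a description of the letters and not a binding site. The feature of Nlrp5 began 472 bases and that of Zbed3 854 bases before the RefSeq start, so both windows lie inside the assembled transcripts, while the Padi6 feature began at the RefSeq start itself. The windows of the other 4 genes lie partly or wholly inside their annotated genes and are not shown.

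By CPM, which is not corrected for length, most members ranked among the highest features of these oocytes. Over the 87 oocytes the 7 genes took 1.86% of all counts, with a SD of 0.195 percentage points over oocytes. By CPM, Padi6 ranked 2 and Zbed3 ranked 5 among the 38540 features, Tle6 ranked 16, Nlrp4f 20, Nlrp5 49, Khdc3 116 and Nlrp2 444. Per kilobase of annotated exon, the only scale on which levels of different genes can be set side by side, Padi6 had 2566 and Zbed3 2315 CPM per kb. These neighbours did not keep their order, since Padi6 was the higher in 15 of 30 young NSN and 21 of 37 aged NSN oocytes but in all 20 SN oocytes (12 young and 8 aged). Tle6 followed at 732 CPM per kb, below Zbed3 in all 87 oocytes. Nlrp4f had 532 and Khdc3 418 CPM per kb, and these neighbours overlapped, with Tle6 above Nlrp4f in 74 and Nlrp4f above Khdc3 in 72 of 87 oocytes. Nlrp5, a core subunit, had only 297 CPM per kb and was below Khdc3 in 81 of 87 oocytes, and Nlrp2 was last at 104 CPM per kb, below Nlrp5 in all 87. The per-length values of Zbed3 and Khdc3 rest on the exon length of the annotated gene, which is shorter than their features.

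**Figure D1:**
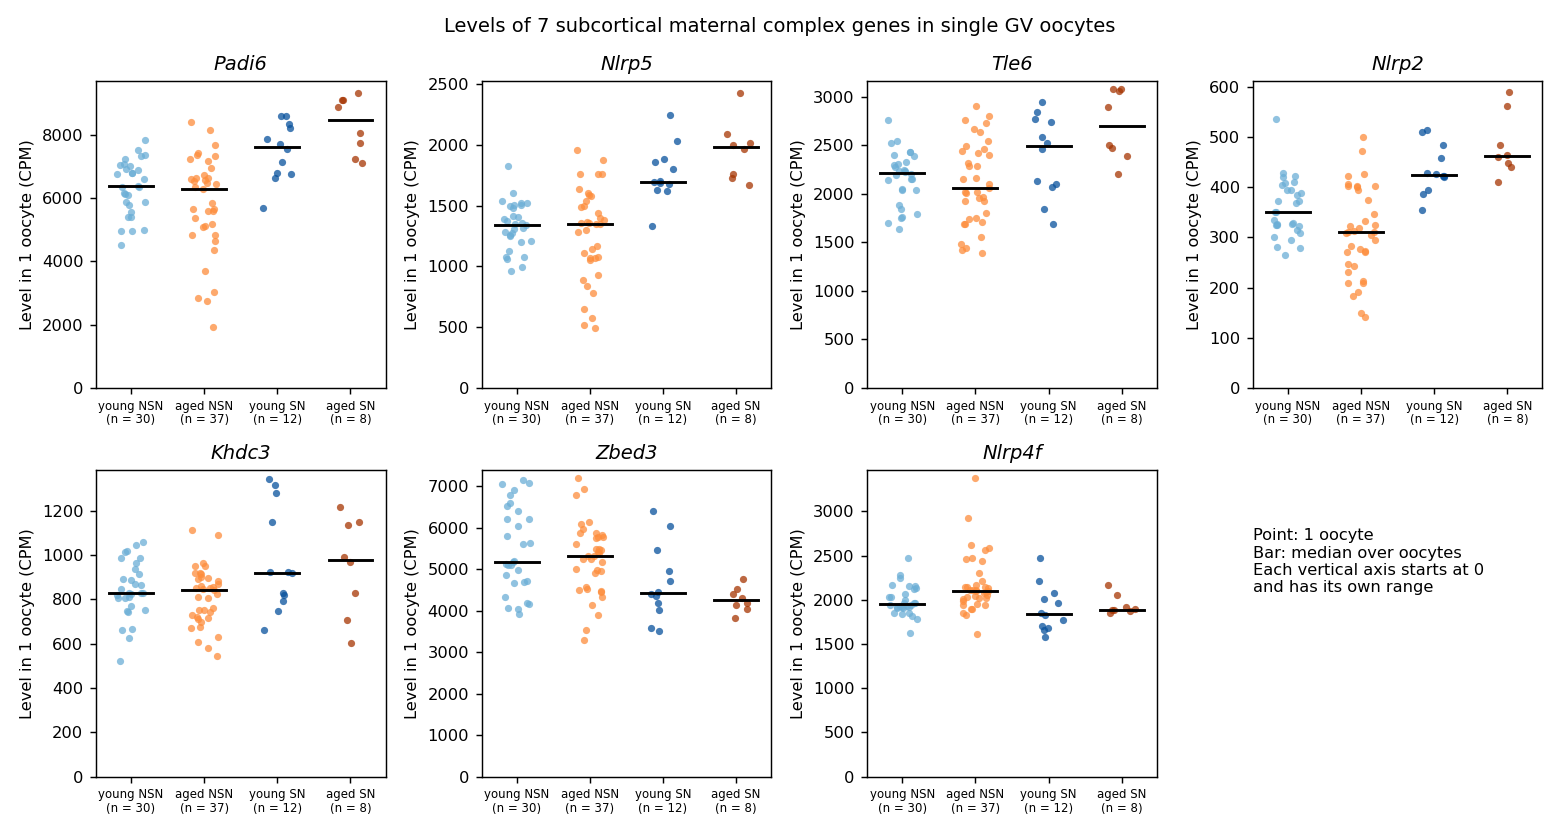
Level in CPM (vertical axes, each starting at 0) of each of 7 genes in single young NSN (n = 30), aged NSN (n = 37), young SN (n = 12) and aged SN (n = 8) oocytes. Points are oocytes and bars are medians. Padi6, Nlrp5 and Nlrp2 sit higher in SN oocytes and reach lower in aged NSN than in young NSN oocytes, down to 1916, 493 and 142 CPM.

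Of the core subunits, Nlrp5 was past 1.2-fold higher in SN than in NSN oocytes at both ages, and Tle6 in aged oocytes only. Whether the ages differ in this was not tested. Nlrp5 ran from 964 CPM through a median of 1342 to 1822 CPM in young NSN oocytes and from 493 through 1348 to 1955 CPM in aged NSN oocytes. In SN oocytes it ran from 1335 through 1698 to 2242 CPM (young) and from 1669 through 1983 to 2428 CPM (aged). Of 12 young SN oocytes, 11 were above the young NSN median, and all 8 aged SN oocytes were above the aged NSN median, with ranges that overlap at both ages. The log2 ratio of SN over NSN levels was 0.42 (95% interval 0.41 to 0.44) in young and 0.59 (0.58 to 0.61) in aged oocytes. Tle6, a relative of the Groucho corepressors, ran from 1642 through 2217 to 2765 CPM in young NSN and from 1395 through 2063 to 2911 CPM in aged NSN oocytes. In young SN oocytes it ran from 1691 through 2495 to 2950 CPM, and in aged SN oocytes from 2208 through 2697 to 3081 CPM. Its log2 ratio, SN over NSN, was 0.24 in young oocytes, short of 1.2-fold, and 0.39 in aged oocytes. Only 7 of 12 young SN oocytes exceeded the young NSN median of Tle6, against all 8 aged SN oocytes for the aged median.

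Padi6 had the highest levels of the set in SN oocytes. It ran from 4514 through 6365 to 7825 CPM in young NSN oocytes and from 1916 through 6274 to 8400 CPM in aged NSN oocytes. In SN oocytes it ran from 5672 through 7624 to 8598 CPM (young) and from 7107 through 8467 to 9326 CPM (aged). The lowest aged SN oocyte thus lay above the median of either NSN group, and 5 of 12 young SN and 4 of 8 aged SN oocytes lay above every NSN oocyte of their age. The log2 ratio, SN over NSN, was 0.30 (0.29 to 0.30) in young and 0.51 (0.50 to 0.52) in aged oocytes. Khdc3, the KH-domain subunit, showed wide and overlapping ranges, from 522 through 828 to 1060 CPM in young NSN and from 542 through 840 to 1112 CPM in aged NSN oocytes. In SN oocytes it ran from 661 through 919 to 1343 CPM (young) and from 603 through 979 to 1216 CPM (aged). Its log2 ratios of 0.15 in young and 0.25 in aged oocytes did not reach 1.2-fold, although the aged value passed it in 5 of 19 alternative settings, over which it ran from 0.17 to 0.41.

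The NLR family partners Nlrp2 and Nlrp4f differed in direction. Nlrp2, the least abundant member, ran from 265 through 351 to 536 CPM in young NSN, from 142 through 311 to 501 CPM in aged NSN, from 355 through 424 to 514 CPM in young SN and from 410 through 463 to 589 CPM in aged SN oocytes. All 12 young SN and all 8 aged SN oocytes lay above the NSN median of their age, and the log2 ratio, SN over NSN, was 0.32 (0.29 to 0.35) in young and 0.65 (0.62 to 0.68) in aged oocytes. Nlrp4f ran from 1623 through 1953 to 2473 CPM in young NSN and from 1615 through 2096 to 3380 CPM in aged NSN oocytes, and from 1580 through 1839 to 2468 CPM in young SN and 1848 through 1888 to 2164 CPM in aged SN oocytes. Only 1 of 8 aged SN oocytes exceeded the aged NSN median, and the log2 ratio was -0.10 in young and -0.18 in aged oocytes. Zbed3 also pointed downwards. It ran from 3917 through 5174 to 7144 CPM in young NSN, from 3291 through 5326 to 7201 CPM in aged NSN, from 3510 through 4421 to 6404 CPM in young SN and from 3819 through 4247 to 4751 CPM in aged SN oocytes. None of the 8 aged SN oocytes reached the aged NSN median of Zbed3, yet all 8 lay inside the aged NSN range, and the log2 ratio was -0.14 in young and -0.29 (-0.30 to -0.28) in aged oocytes.

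Counted against a fold of 1.2 in either direction, 3 of the 7 members were higher in young SN than in young NSN oocytes (Nlrp5, Nlrp2 and Padi6) and 0 were lower. Among 9586 features tested, those with at least 10 CPM in a group and 3 counts in both, 12.5% were as much higher and 5.89% as much lower. In aged oocytes 4 members were higher (Nlrp2, Nlrp5, Padi6 and Tle6) and 1, Zbed3, was lower, against 22.9% and 18.0% of 9747 features. The median log2 ratio of the members was 0.24 in young and 0.39 in aged oocytes, and that of all features tested 0.00 and -0.01. The order of the members by this ratio differed between the ages only in that Nlrp5 and Nlrp2 changed places. Whether the ratios differ between ages was not tested. Oocyte markers moved alongside, since 5 of 8 were past the fold upwards and 1 downwards in young SN oocytes, and 7 upwards and 1 downwards in aged SN oocytes. Within the complex, Padi6 made up 34.1% of the members' counts in young NSN and 38.1% in young SN oocytes, and 32.8% in aged NSN and 40.1% in aged SN oocytes. Zbed3 made up 29.5% and 24.4% in the young groups, and 29.1% and 20.4% in the aged groups. The members together took 1.84% of all counts among young NSN and 1.78% among aged NSN oocytes, and their share was 2.02% for young SN and 2.07% for aged SN oocytes. Leaving out run 2 of the young oocytes, a run being a stretch of consecutive oocyte names of unstated meaning, changed which members were past the fold in the young comparison. Nlrp5 stayed past it at 0.34 and Khdc3 passed it at 0.33, whereas Padi6 (0.23), Nlrp2 (0.18) and Tle6 (0.07) did not, and Zbed3 was past it downwards at -0.34. Padi6 was past the fold in 18 of 23 alternative settings of the young comparison and fell short with the mean (0.24) or median (0.26) over oocytes, with thinned counts (0.25) and in oocytes with the name suffix A (0.20), besides the run just named. In the aged comparison Zbed3 fell short at -0.25 without aged run 2 and at -0.21 in oocytes with the suffix A.

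**Figure D2:**
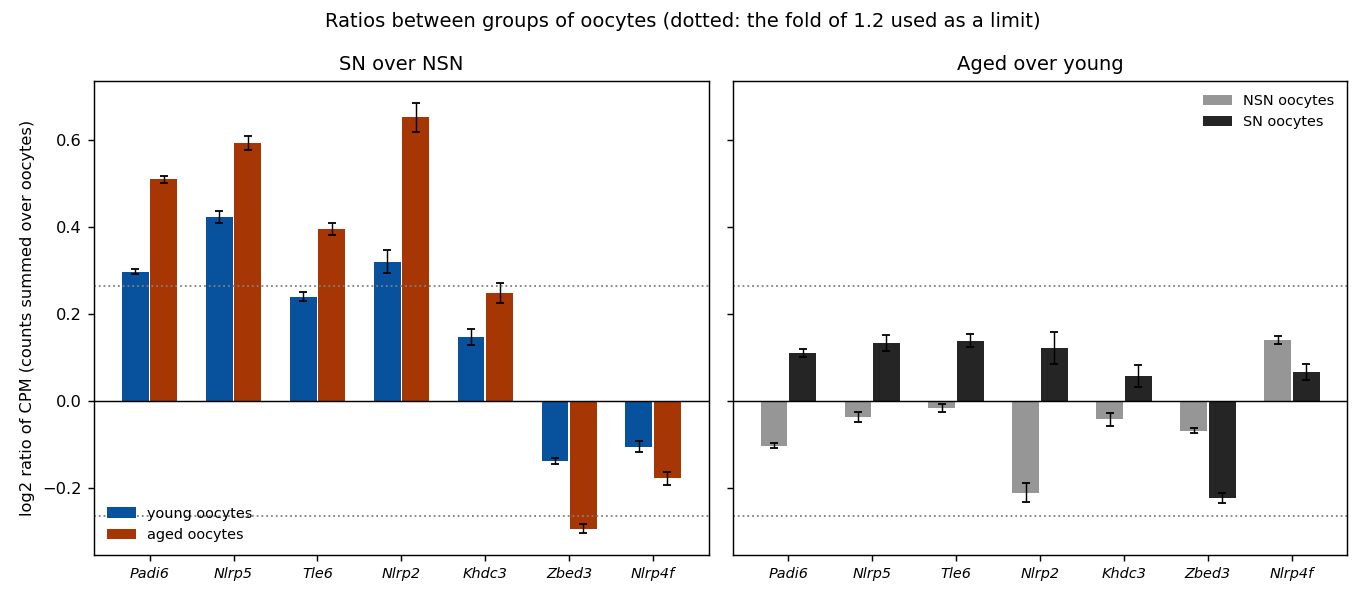
Log2 ratio of CPM from counts summed over oocytes (vertical axis) for SN over NSN oocytes at each age (left) and for aged over young oocytes in each configuration (right). Error bars are 95% counting intervals and dotted lines mark the fold of 1.2. Past that fold lie 3 members in young and 5 in aged oocytes on the left, and 0 on the right.

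Between the ages the levels of the members differed little. Over all 87 oocytes, 0 of 7 members were 1.2-fold or more higher in aged oocytes, against 1.39% of 9397 features, and 0 were as much lower, against 3.86%. Among NSN oocytes the counts were again 0 and 0, against 1.69% and 4.62% of 9324 features. Nlrp2 was the lowest, at a log2 ratio of aged over young of -0.21 (-0.23 to -0.19), with 11 of 37 aged oocytes above the young median, and Padi6 followed at -0.10. Nlrp4f pointed the other way, at 0.14 (0.13 to 0.15), with 29 of 37 aged NSN oocytes above the young NSN median. The core subunits Nlrp5 and Tle6 had -0.04 and -0.02, Khdc3 -0.04 and Zbed3 -0.07. Among SN oocytes 0 members were past the fold in either direction, against 10.3% and 8.29% of 9703 features, with Zbed3 at -0.22 and the other 6 between 0.06 and 0.14. The aged group holds 8 SN of 45 oocytes against 12 of 42 in the young group, so comparisons over all oocytes mix configurations in unequal shares. The NSN values moved with the runs of aged oocytes and with the name suffix. Without aged run 3, Nlrp2 stood at -0.28, which is past the fold, Nlrp5 at -0.26, Zbed3 at 0.05 and Nlrp4f at 0.02. Without aged run 2, Nlrp5 stood at 0.10. In oocytes with the suffix A, Nlrp5 had 0.11, Zbed3 -0.18 and Nlrp4f 0.25, and in those without it -0.21, 0.04 and 0.03. In that run Nlrp5 had 1584 CPM in NSN oocytes, against 1212 and 1016 CPM in aged runs 1 and 2 and between 1275 and 1459 CPM in the young runs.

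In NSN oocytes some of the members had a wider spread between oocytes at the older age. The aged oocytes came from 7 mice of 44 to 54 weeks and the young ones from 3 mice of 12 weeks. With the mice not named, spread between mice cannot be told apart from spread between oocytes of a mouse, and neither was tested. The coefficient of variation (CV) over oocytes, with counting noise taken off, was 29.8% in aged and 14.5% in young NSN oocytes for Nlrp5, 26.6% and 13.6% for Padi6, and 28.2% and 15.8% for Nlrp2. For Tle6 it was 20.1% in aged and 12.6% in young, and for Nlrp4f 15.0% and 8.38%. Khdc3 had 15.8% in aged and 15.1% in young, and Zbed3 16.5% and 18.7%. The log2 ratio of the CVs of these genes depended on the setting, from -0.14 to 0.33 for Khdc3, past the fold upwards in 1 of 12 alternatives, and from -0.96 to 0.22 for Zbed3, past it downwards in 5 of 12. Thus 5 of 7 members had a CV 1.2-fold or more higher in aged NSN oocytes, and 0 one as much lower. A higher spread was the rule in these oocytes, however, and 50.7% of 9314 features passed the same fold upwards and 7.91% downwards. Of 596 features of at least 300 CPM, a limit near the members' own levels that was chosen after their values were seen, 60.2% passed upwards. The size of the difference set some members further from the rest. The median log2 ratio of CVs was 0.83 over the 7 members, 0.27 over all features and 0.34 over those of at least 300 CPM. Single ratios were 1.04 for Nlrp5, 0.97 for Padi6, 0.84 for Nlrp4f, 0.83 for Nlrp2 and 0.68 for Tle6, and 10% of all features tested exceeded 0.80. With the CV taken within runs the ratios of these 5 genes were 0.85, 0.90, 0.57, 0.76 and 0.71. The value of Nlrp4f rested on aged run 3, without which it was 0.10. Oocyte genes outside the set scattered more as well. The SD went from 479 CPM in young to 1065 CPM in aged NSN oocytes for Gdf9, and from 812 to 1450 CPM for Nlrp14. Of the oocyte markers and listed partners, Ddx4 (9.22 and 6.66 CPM) and Ube2d3 (345 and 339 CPM) went the other way. Aged SN oocytes did not show this spread, as 0 members were past the fold upwards and 3 downwards (Zbed3, Nlrp4f and Tle6), against 26.5% and 45% of 8930 features.

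**Figure D3:**
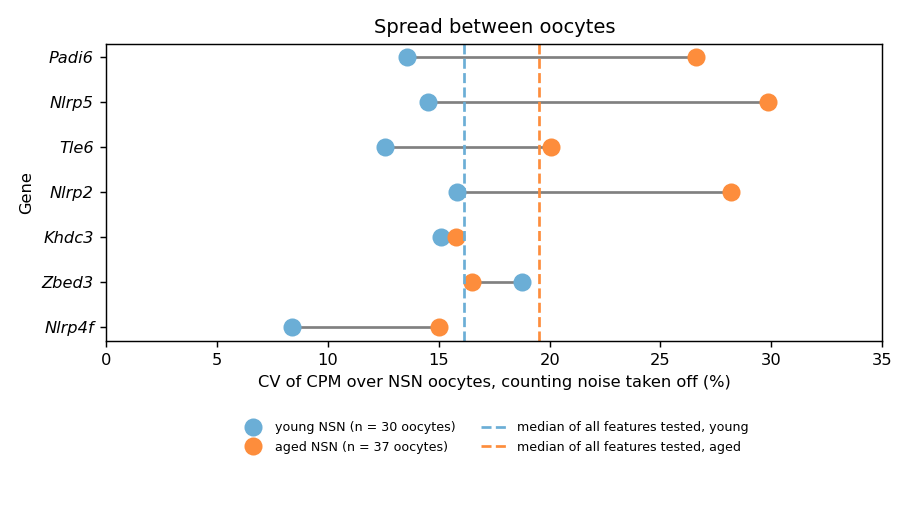
CV of CPM over young NSN (n = 30) and aged NSN (n = 37) oocytes, counting noise taken off (horizontal axis, %), for each of 7 genes (vertical axis), with dashed lines at the medians of all features tested, 16.1% in young and 19.5% in aged oocytes. Padi6, Nlrp5, Tle6 and Nlrp2 lie below the young median and above the aged one, whereas Khdc3 and Nlrp4f lie below both.

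In 6 of the 7 members at least 1 aged NSN oocyte lay below every young NSN oocyte, as in 73.8% of 9324 features. In 4 members there were 5 or more such oocytes, against 18.2% of all features and 16.4% of those of at least 300 CPM, a limit of 5 set after the members' values were seen. For Nlrp5, 8 of 37 aged NSN oocytes lay below the lowest of the 30 young NSN oocytes and 2 above the highest. For Nlrp2 the numbers were 10 and 0, for Padi6 6 and 2, and for Tle6 5 and 2. Khdc3 had 0 below and 2 above, Zbed3 3 below and 1 above, and Nlrp4f 1 below and 5 above. The low values fell only in part in the same oocytes. Below the young range were 3 oocytes in all of Nlrp5, Tle6, Padi6 and Nlrp2, 2 oocytes in 3 of these genes, 2 oocytes in 2 and 7 oocytes in 1. The other 23 were below it in none. Aged oocyte 31 was the lowest, with Padi6 at 1916, Nlrp5 at 493, Tle6 at 1395 and Nlrp2 at 142 CPM. Oocyte 25 had Padi6 at 2737, Nlrp5 at 521, Tle6 at 1426 and Nlrp2 at 148 CPM, and oocyte 26 had 3045, 577, 1560 and 209 CPM for the same genes. Zbed3, Khdc3 and Nlrp4f were not below the young range in these oocytes. In oocyte 31 they stood at 5616, 607 and 2109 CPM, the Khdc3 value lying below its aged NSN median of 840 CPM, and in oocyte 25 at 7201, 963 and 2165 CPM, the highest Zbed3 value of the aged NSN group. All 3 oocytes belong to aged run 2, and of the 5 oocytes low in at least 3 of the genes, 4 came from that run and 1 from run 1, none with the name suffix A. Their total counts ranked 4, 20, 29, 10 and 25 from the lowest among the 37 aged NSN oocytes, from near the bottom to the upper part of the range of depth. What the runs stand for is not given in the labels. Genes outside the set reached lower as well. The lowest summed level was 8737 CPM in aged and 13113 CPM in young NSN oocytes for the oocyte markers. For the listed partners of the complex it was 7045 and 9894 CPM. Paralogs (3768 and 3764 CPM) and granulosa markers (6.14 and 5.67 CPM) did not reach lower. Nlrp5, Tle6, Padi6 and Nlrp2 were grouped after their values had been seen, and how often other groups of genes share low oocytes was not tested.

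**Figure D4:**
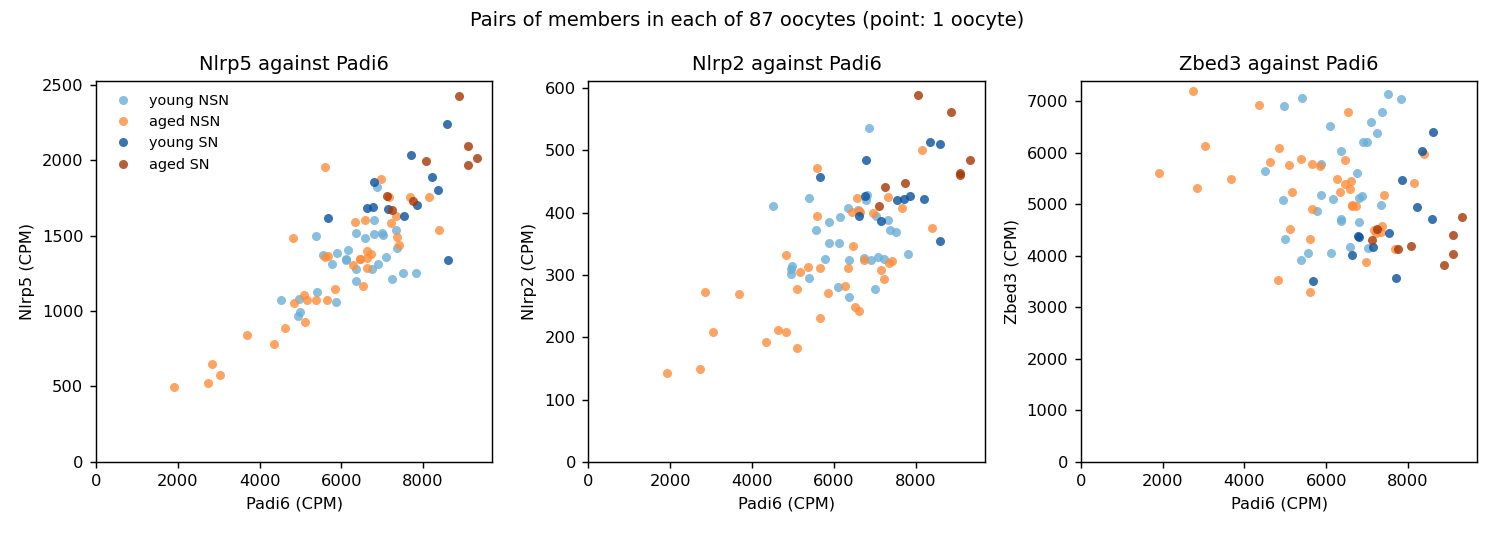
Nlrp5, Nlrp2 and Zbed3 (vertical axes, CPM) against Padi6 (horizontal axes, CPM) in each of 87 oocytes, coloured by age and configuration. Nlrp5 and Nlrp2 run along with Padi6, the lowest points being aged NSN oocytes down to 1916 CPM of Padi6, while Zbed3 does not (r of log2 levels 0.88, 0.72 and -0.23).

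Across oocytes the members did not vary as a unit. Pearson's r of log2(CPM + 1) over the 87 oocytes, which share library preparation and configuration, was given as a description. Padi6, Nlrp5, Nlrp2 and Tle6 varied together, with r of 0.88 for Nlrp5 and Padi6, 0.84 for Nlrp5 and Nlrp2, 0.72 for Padi6 and Nlrp2, and between 0.63 and 0.67 for Tle6 with each of the other three. These values remained between 0.55 and 0.84 after the means of the 4 groups, set by age and configuration, were taken out. Khdc3, a subunit bound to the core, had r of 0.37 with Padi6, 0.26 with Nlrp5 and -0.05 with Tle6. Zbed3 had negative r with all 6 other members, from -0.55 with Nlrp5 and -0.52 with Nlrp2 to -0.17 with Tle6 and Khdc3. Nlrp4f likewise had negative r with all 6, from -0.41 with Tle6 and Padi6 to -0.16 with Nlrp5, and its r with Zbed3 was -0.33 over all oocytes and -0.49 with group means out. Of 21 pairs 9 were positive, with a median r of -0.16, or -0.02 with group means out. The median over all pairs of the 4328 features of at least 50 CPM was 0.01.

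**Figure D5:**
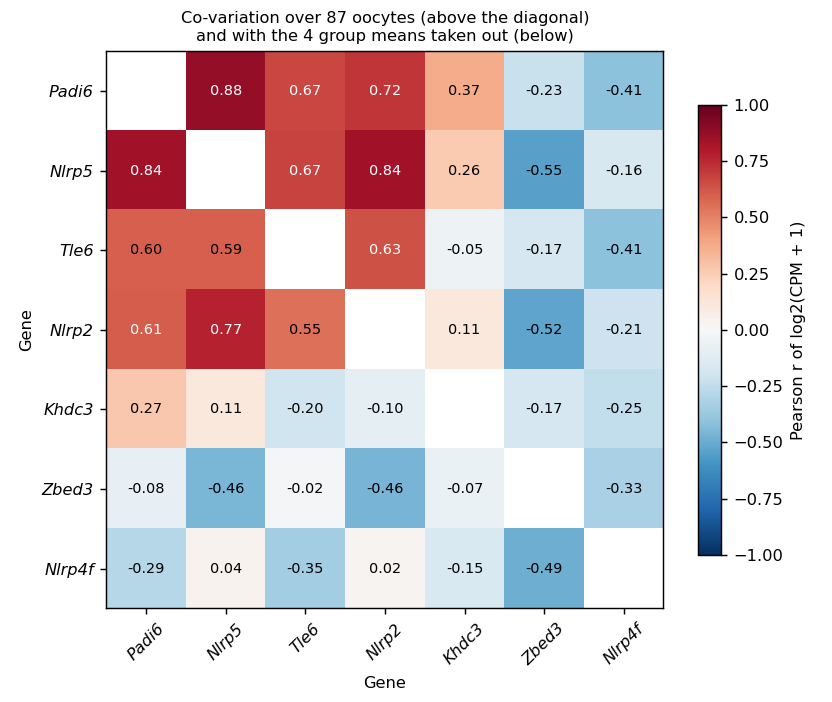
Pearson's r of log2(CPM + 1) for each pair of 7 genes, over 87 oocytes (above the diagonal) and with the means of the 4 groups taken out (below it), with colour from -1 to 1. Padi6, Nlrp5, Tle6 and Nlrp2 form a block of positive values from 0.55 to 0.88, and Zbed3 and Nlrp4f are negative against it except for 2 values near 0.

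The features most alike to each member over the 87 oocytes were found among those of at least 50 CPM outside the set. For Padi6 they were Mtmr14, a phosphoinositide phosphatase gene (r = 0.93), and Zp2, a zona pellucida glycoprotein gene (r = 0.92). For Nlrp5 they were Astl, the oocyte protease ovastacin that cleaves ZP2 (r = 0.92), and the feature on Pdia3, a disulfide isomerase of the endoplasmic reticulum (r = 0.92), which the study's list names Catsper2. Nlrp2 was most like Hspa5 (r = 0.85) and Hyou1 (r = 0.84), both chaperones of the endoplasmic reticulum. Tle6 was most like Pabpc1l, an oocyte poly(A)-binding protein gene (r = 0.86), and Tacc3, a spindle protein gene (r = 0.85). Zbed3 was most like Slc6a9, the glycine transporter of oocytes (r = 0.90), and Atxn2l (r = 0.87), and Nlrp4f like Txndc9 (r = 0.83) and the mitochondrial ribosomal protein gene Mrpl1 (r = 0.81). Khdc3 had the lowest such values, 0.74 with a feature on Zfyve21 that the list names Xrcc3, and 0.69 with the RNA polymerase subunit gene Polr2j. The members themselves were left out of this search.

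Ooep, the third core subunit, could not be measured on its own. Its gene at chr9:78376109-78378725 lies inside a feature at chr9:78363724-78378853 on the minus strand, which the study's list names Dppa5a, and the overlap of spans (Jaccard index 0.17) was below the 0.3 required. The merged feature had 1823 CPM in young NSN, 1967 CPM in aged NSN, 1755 CPM in young SN and 1743 CPM in aged SN oocytes, and how much of it is Ooep or its KH-domain relative Dppa5a cannot be told apart. Its log2 ratio was 0.11 for aged over young NSN oocytes and -0.05 and -0.17 for SN over NSN in young and aged oocytes, none of them past the fold. Its CV was 16.9% in aged and 11.2% in young NSN oocytes. Over oocytes it went with Khdc3, at r of 0.49 over the 87 oocytes and 0.63 with group means out, and against Nlrp2 (-0.46) and Tle6 (-0.43).

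Partners of the complex and of the lattices were read from a separate list of 5 genes, all with a feature and above 10 CPM. Nlrp14, an NLR family gene, had 6087 CPM over the 87 oocytes, Skp1a 3141, Ube2d3 1762, Uhrf1 978 and Cfl1 192 CPM. In young oocytes 0 of 5 were past the fold for SN over NSN. In aged oocytes 2 were higher, Uhrf1 (0.46), a reader of hemimethylated DNA held in the cytoplasm of oocytes, and Nlrp14 (0.42). Of all features tested, 12.5% were as much higher in young and 22.9% in aged SN oocytes, and 5.89% and 18.0% as much lower. Between ages 0 of 5 were past the fold in NSN oocytes, and 2, Ube2d3 (0.37) and Nlrp14 (0.27), were higher in aged SN oocytes. For all features the shares higher in aged oocytes were 1.69% in NSN and 10.3% in SN oocytes. No list was tested against these shares. Nobox, the factor whose element was searched in the promoters, had 355, 337, 454 and 505 CPM in young NSN, aged NSN, young SN and aged SN oocytes. Its log2 ratio of SN over NSN was 0.35 in young and 0.58 in aged oocytes. Of the 7 oocyte transcription factors listed 6 had a feature, Figla not among them, and 3 of 4 tested were higher in young SN oocytes (Nobox, Tbpl2 and Taf4b). In aged SN oocytes the same 3 of 5 tested were higher and Sohlh2 was lower (-0.65). Between ages in NSN oocytes 1 of 5, Sohlh2, was higher (0.36), at 11.6 against 9.03 CPM. Among SN oocytes 2 of 4 tested were higher in aged oocytes, Tbpl2 (0.36) and Taf4b (0.42).

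Padi6, Tle6 and Zbed3 stood far above the relatives listed for them. The list held no NLR genes. Of 16 paralogs 11 had a feature, and 5 of these were above 10 CPM. Beside Padi6 at 6498 CPM over the 87 oocytes, Padi1 had 1.63 and Padi2 3.31 CPM. Beside Tle6 at 2261 CPM, Tle4 had 12.6, Tle1 6.01, Aes 4.53 and Tle2 0.30 CPM, so the neighbour whose name the Tle6 feature carries was nearly absent. Zbed4 had 9.88 and Zbed5 29.1 CPM beside Zbed3 at 5164 CPM. These levels are per library and not per length. The KH-domain relatives had higher levels, with Khdc1a at 260 CPM and a feature named Khdc1c, wider than its gene, at 2043 CPM. For SN over NSN 1 paralog, Tle4, was past the fold, upwards, in young (0.36, of 5 tested) and in aged oocytes (0.54, of 6 tested). Of all features 12.5% and 22.9% were as much higher. Between ages none of 6 was past it in NSN oocytes, and 1 of 5, Tle4 (0.43), was in SN oocytes.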

How the data were processed

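RNA of single oocytes was read by Smart-seq2, as one arm of scM&T-seq, and the methylation arm is not analysed here. Trimming, single-end alignment to GRCm38 with HiSat2 and counting of primary alignments over features of an oocyte transcriptome assembly were done by the authors, who deposited raw counts, not normalised. There are no molecular identifiers, so intervals cover counting error only. The counting program is not given in the sources used here. The members and lists were chosen with earlier results of these data known.

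A gene's feature was the one named for it in the part of the study's feature list in hand, or the one on its strand with a GENCODE M21 span overlap (Jaccard index) of 0.3 or more. Of the 28 pairs planned 21 were possible, since Ooep had no feature. Age came from the labels and configuration from the study's supplementary list, which gives none for 1 aged oocyte, leaving 87 of 88. Ratios carried exact 95% intervals, and correlations used a pseudocount of 1 CPM. Past the fold means 1.2-fold, among features of at least 10 CPM in 1 of the 2 groups and 3 counts in both. Named genes were all members, list genes that define a list or lie past the fold, and the 2 features most alike to each member.

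Alternatives were TMM (edgeR 4.0.16, R 4.3.3) and median of ratios scaling, totals without the members, means and medians over oocytes, thinning to 900000 counts per oocyte, other filters and folds, name suffix, and leaving out runs or SN oocytes. The background of features of at least 300 CPM was added after values were seen. A value was taken as moved past 0.1 for a log2 value or r, 1.5 times for a count and 25% otherwise. Python 3.11.15, numpy 2.4.6 and scipy 1.17.1 were used, and the calculations were tested on simulated data.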

Additional observations from a re-analysis of the deposited data

Results flagged for a closer look

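In oocyte 48A, an aged oocyte that the study's list leaves without a configuration and that enters no comparison above, Tle6 stood at 3570 CPM and Khdc3 at 1959 CPM. Both values lie above those of all 45 aged oocytes used, whose highest were 3081 and 1216 CPM. In the same oocyte Zbed3 stood at 2530 CPM and Nlrp4f at 624 CPM, below all 45, whose lowest were 3291 and 1615 CPM. Padi6 at 5256, Nlrp5 at 928 and Nlrp2 at 213 CPM lay inside the aged range. The study's methods describe the exclusion of a single oocyte as an outlier in a distance matrix, without naming it. The total count of 48A was 3588332, inside the range of the other aged oocytes. Among the 8 aged SN oocytes, no member's highest or lowest value was far from the rest by Dixon's criterion, which chance alone passes in about 1 in 20 groups. Only this group was examined in this way.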

How the results depend on the processing

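Under the alternatives run, no called ratio changed its sign. Scaling by TMM or median of ratios moved the median of all features by less than 0.1 on the log2 scale in every comparison. With 1 SN oocyte left out at a time, the members' median log2 ratio, SN over NSN, ran from 0.20 to 0.26 in young and from 0.35 to 0.43 in aged oocytes, with 2 to 3 and 4 to 5 members higher and 0 and 1 lower. For aged over young SN oocytes it ran from 0.08 to 0.14, with 0 past the fold either way. Without young run 3 the young median was 0.37. Without young run 2, 1 member was lower in young SN oocytes (Zbed3) and 1 higher in aged than young SN oocytes (Tle6). Without young run 3, 1 was lower in the latter comparison (Zbed3), and without aged run 3, 1 (Nlrp2) was lower in aged oocytes, in all and in NSN oocytes. Without aged run 2, 0 were lower in aged SN oocytes. At a fold of 1.1, 1 member was higher and 1 lower in each of the 3 age comparisons, 5 were higher and 1 lower in young SN and 2 lower in aged SN oocytes. At a fold of 1.5, 0 were higher in young SN, and 2 higher and 0 lower in aged SN oocytes. No share of all features is given at the folds of 1.1 and 1.5, so these counts cannot set the members apart from other features. The median log2 ratio of CVs was 0.53 over all 87 oocytes, 0.71 within runs, 0.65 by median absolute deviation, 0.94, 0.60 and 0.59 without aged runs 1, 2 and 3, and 0.72 without young run 2. The median r over pairs was -0.021 with group means taken out. The cause of these shifts was not tested. No paired analysis was run. Whether oocytes that share a number, with and without the suffix A, form pairs is not given in the labels. The lowest count of a member in an oocyte was 194 (Nlrp2). With thinned counts 2 rather than 3 members were higher in young SN than in young NSN oocytes. Padi6 then stood at 0.25, and Tle6 went from 0.24 to 0.14. One limit among those named is that oocytes cannot be assigned to mice.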

Other observations

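Khdc3 had its highest values in a few SN oocytes of both ages. The 7 highest of the 87 oocytes were all SN, 4 of them young, at 1343, 1313, 1280 and 1149 CPM, and 3 aged, at 1216, 1148 and 1134 CPM. The other 8 young SN oocytes lay between 661 and 923 CPM, inside the young NSN range. In the 4 young oocytes Tle6 stood at 1849, 2105, 2135 and 2067 CPM, below its young SN median of 2495 CPM, and the merged feature of Ooep and Dppa5a at 2667, 2227, 1813 and 2093 CPM, above its young SN median of 1707 CPM. Of these 4 oocytes 3 came from young run 3 and 1 from young run 1. These oocytes were picked by their values, and nothing was tested between them and the rest.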
